A study of Mus musculus with 6 samples.

Results

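The core circadian clock of the mouse was examined as 10 transcripts: Arntl, Clock, Per1, Per2, Per3, Cry1, Cry2, Nr1d1, Nr1d2 and Dbp. The genes were chosen by name, as rows of the deposited table, and all 10 were present among its 24419 gene symbols; Arntl is the older symbol of Bmal1. The study compared RNA of cells sorted as neurons from the cortex beside an infarct in male wild type C57BL/6N mice, taken at day 4 after occlusion of the middle cerebral artery for 60 min. One group received vehicle and the other 15-HETrE, a hydroxylated fatty acid (600 ng), each in 150 µL of phosphate-buffered saline by intravenous injection at 24, 48 and 72 h after onset; both groups had the stroke, and there was no group without one. Cells that carried Thy1 and lacked ACSA2, CD31, CD45 and O4 were collected after 75 min of pronase digestion, with 3 RNA-seq libraries per group. The labels give no ages, no hour of collection and no number of animals behind a library, so p-values measure the spread between libraries, which may be technical.

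The clock is a transcriptional feedback loop present in most cells. CLOCK and ARNTL bind together to E-boxes and activate the Per, Cry, Nr1d1, Nr1d2 and Dbp genes; PER and CRY proteins then repress CLOCK and ARNTL, while the nuclear receptors made from Nr1d1 and Nr1d2 (REV-ERB alpha and beta) repress Arntl through ROR elements. DBP activates genes with D-boxes. In tissues with a running clock, Arntl and Npas2 transcripts are therefore high when those of Nr1d1 and Dbp are low, so the relative levels of these genes depend on the time of day. Neurons and glia of the cortex both have such clocks.

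Matches to these elements near the start sites of the members are shown because they are the sequences through which the members are known to act on one another. The cAMP response element was searched as well, because Per1 is also induced through it outside the daily cycle. RefSeq promoter windows (GRCm38.p6, 250 bases before to 50 bases after each start) matched 9 of the 10 members in 13 windows; Per2 had no match. Both strands were searched for CACGTG (E-box), CACGTT (a variant E-box), TTATGTAA (D-box), TTATGCAA (a variant D-box), TAGGTCA (core of a ROR element), TAGGTTA (its variant) and TGACGT (core of a cAMP response element). The spellings were chosen with the members' windows in view, and no spelling contains another. Each match is printed on the strand of its gene with 10 bases on either side, and the capitals mark the motif.
Per1 E-box: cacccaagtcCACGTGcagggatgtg
Per1 variant D-box: gggcctggcaTTATGCAAcccgcctccc
Per1 cAMP response element: gctcagcggcTGACGTcggtttccct
Per3 D-box, upstream: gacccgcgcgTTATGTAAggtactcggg
Per3 D-box, downstream: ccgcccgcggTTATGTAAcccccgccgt
Cry1 variant E-box: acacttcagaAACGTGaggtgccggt
Cry1 E-box: tgccggtggtCACGTGgggtgcatgc
Cry2 variant E-box: acatggtgggAACGTGagggggcgga
Nr1d1 variant E-box: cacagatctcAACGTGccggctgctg
Arntl variant ROR element: ggtcggaaagTAGGTTAgtggtgcgac
Arntl ROR element: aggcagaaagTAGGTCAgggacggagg

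The 11 matches lay in 6 members, and the windows of Clock, Nr1d2 and Dbp, 3 members, held none of these letters. The Per1 stretches are at chr11:69098773-69098798, chr11:69098915-69098942 and chr11:69100010-69100035 (plus strand), the last before a second start site. Those of Per3 are at chr4:151044853-151044880 and chr4:151044806-151044833 (minus strand), 205 and 158 bases before its start. The Cry1 stretches are at chr10:85185118-85185143 and chr10:85185099-85185124, that of Cry2 at chr2:92434220-92434245 and that of Nr1d1 at chr11:98775390-98775415, all on the minus strand. The Arntl stretches are at chr7:113207495-113207521 and chr7:113207531-113207557 (plus strand). Among all 32851 windows of the same length, CACGTG stood in 7.15%, CACGTT in 4.68%, TTATGTAA in 0.938%, TTATGCAA in 0.743%, TAGGTCA in 2.61%, TAGGTTA in 1.44% and TGACGT in 7.51%. A match describes letters only, since binding was not measured.

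The libraries held 5405245 to 22558400 reads assigned to genes, fewest in the one called vehicle combined. By their column names they are vehicle 1, vehicle 2, vehicle combined, 15-HETrE 1, 15-HETrE unnumbered and 15-HETrE combined. What combined means is not given; the numbered libraries share a prefix, and 15-HETrE unnumbered has another. Summed levels of 10 pan-neuronal markers were 3447, 1994 and 2741 CPM in the vehicle libraries and 6337, 3330 and 5964 CPM in the 15-HETrE libraries, in the order above. Oligodendrocyte transcripts (8 markers) summed to 14741 to 22226 CPM with vehicle and 15822 to 30893 CPM with 15-HETrE although the sort was meant to remove such cells, and 8 microglial markers summed to 23.9 to 88.1 and 26.8 to 70.7 CPM, with Aif1 at 0 in vehicle combined and Ptprc at 0 in 15-HETrE unnumbered. The sum of 8 fibroblast markers set vehicle 1 and vehicle 2 apart, at 12684 and 10320 CPM. It was 1223 to 2198 CPM in the other 4 libraries (Postn at 0 in vehicle combined). Pdgfra alone did not follow this, with 879 and 1006 CPM in vehicle 1 and 2 against 428 to 1382 CPM elsewhere. Most of the sum was Pdgfra in vehicle combined (1382 of 1471 CPM), 15-HETrE 1 (1035 of 1223 CPM) and 15-HETrE combined (1228 of 1271 CPM). The share of Pdgfra was smaller in 15-HETrE unnumbered (428 of 2198 CPM). The 8 astrocyte markers summed to 7687 and 20749 CPM in the combined libraries of vehicle and 15-HETrE and to 665 to 3710 CPM in the others. Slc1a2 alone gave 5696 and 17252 CPM in the combined libraries. The 8 endothelial markers summed to 128 to 213 CPM with vehicle and 50.7 to 116 CPM with 15-HETrE (Tek at 0 in 15-HETrE unnumbered). Cdh5 alone gave 116 of 166 CPM in vehicle 1 and 161 of 213 CPM in vehicle 2. It stood at 5.40 CPM in vehicle combined and 3.11 to 37.6 CPM with 15-HETrE. Of the 8, 3 had a difference above 0 and 5 below. The 8 pericyte and smooth muscle markers summed to 1076 to 1328 CPM with vehicle and 472 to 827 CPM with 15-HETrE. Cspg4 gave 481 of 1120 CPM in vehicle combined and 159 of 827 CPM in 15-HETrE unnumbered, and the groups overlap without it. The 10 cell cycle genes summed to 524 to 763 CPM with vehicle and 161 to 251 CPM with 15-HETrE, with Cdk1 at 0 in both combined libraries and Bub1 at 0 in 15-HETrE unnumbered and combined. In such bulk samples, fewer cells of a type and less RNA per cell cannot be told apart.

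Core clock transcripts were present in every library, and none of the 10 differed between vehicle and 15-HETrE beyond the spread of the libraries. All 10 passed the minimum of a mean of 1 CPM (reads relative to the library total, as scaled by the authors), and 20 to 4425 reads stood behind each value. The test was limma on log2(CPM + 1) over 14523 genes, two-sided, with Benjamini-Hochberg adjustment. It called 0 of the 10 members and 0% of all genes, and the members' adjusted p ranged from 0.528 to 0.982 (limma). At an unadjusted p of 0.05, 0 members and 9.50% of all genes passed in limma, and edgeR's quasi-likelihood test and DESeq2 on the reads also called 0 members, edgeR calling 0% and DESeq2 1.14% of all genes. The difference, 15-HETrE minus vehicle on the log2 scale, was above 0 for 8 members and below 0 for 2, with a median of 0.22, while over all genes tested 51.0% lay above 0 and the median was 0.016. Without vehicle combined the members' median was 0.0011, and 5 of the 10 lay above 0. For 1 member, Cry2, or 10%, every 15-HETrE library lay above every vehicle library and for 0 members below, against 6.84% of all genes tested above and 8.32% below, 15.2% in either direction. limma also called 0 members with a term for the column name prefix, where it called 0.0551% of all genes, without vehicle combined (0.757%) and without both combined libraries (1.4%).

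**Figure D1:**
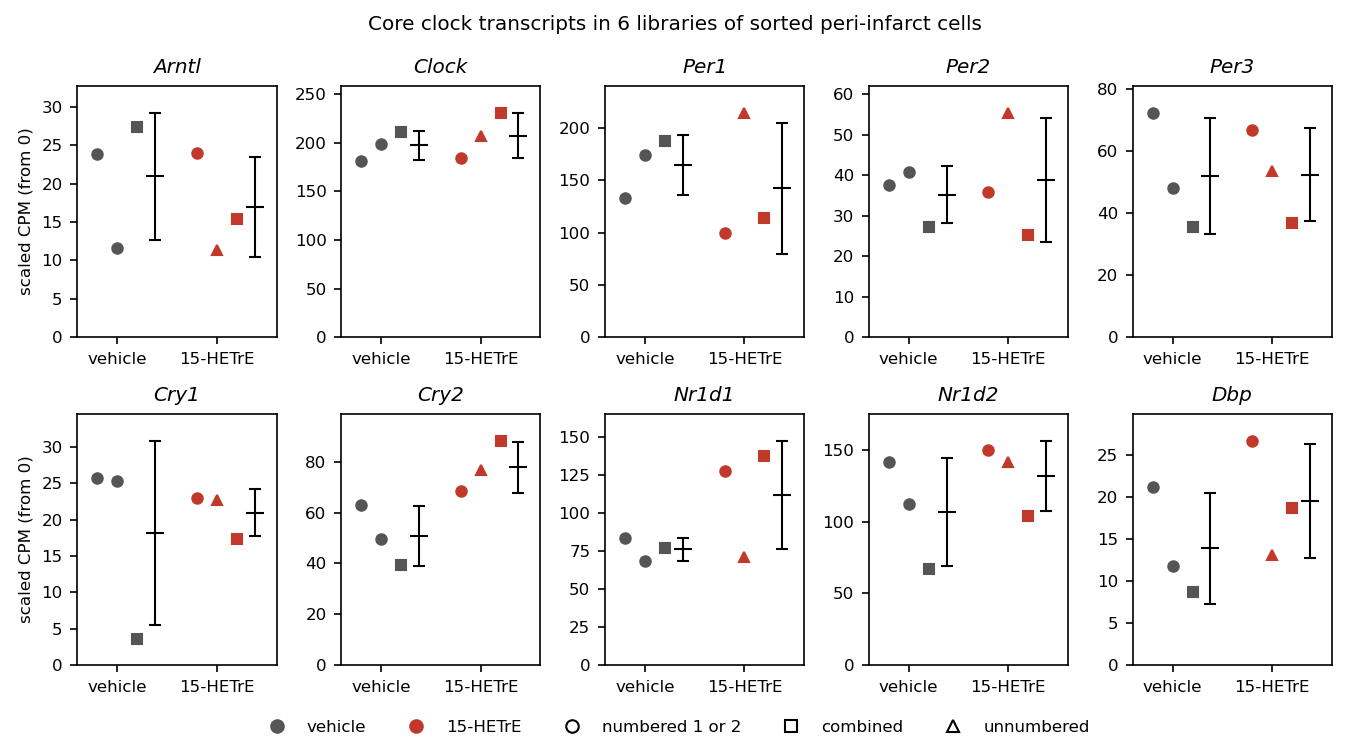
Scaled CPM (vertical axes, from 0) of the 10 core clock transcripts in each library; grey points are vehicle, red points 15-HETrE, symbols give the kind of library name, and black bars the mean and SD of 3 libraries. The groups overlap for every transcript but Cry2, whose vehicle libraries lie at 39.4 to 63.0 CPM and 15-HETrE libraries at 68.4 to 88.4 CPM.

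Per kilobase of annotated exon (GENCODE M21), the highest median levels over the 6 libraries were those of Per1 at 27.3, Nr1d1 at 26.1 and Nr1d2 at 23.5 CPM per kb. Clock followed at 14.8 and Cry2 at 10.4 CPM per kb. Cry1, Per2, Dbp and Per3 lay close together at 6.83, 6.28, 5.31 and 5.29 CPM per kb, and Arntl was lowest at 2.61. Neighbours in this order had overlapping ranges, except Per3 and Arntl, whose ranges were 3.69 to 7.52 and 1.51 to 3.63 CPM per kb. Genes farther apart did separate. Every value of Per1 and Nr1d1, from 17.6 and 22.2 CPM per kb up, lay above the highest of Clock, 16.8, and above all values of the 6 genes below Clock. The lowest value of Clock, 13.2 CPM per kb, lay above every value of Cry1, Per2, Dbp, Per3 and Arntl.

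The activating pair behaved unlike each other across the libraries. Clock (chromosome 5, 76209868 to 76304792, GRCm38), a basic helix-loop-helix factor, was the steadiest member, at 181, 199 and 211 CPM in vehicle 1, 2 and combined and 184, 207 and 231 CPM in 15-HETrE 1, unnumbered and combined. Its lowest and highest libraries differed by 0.35 on the log2 scale, where the median of this range was 1.28 over the 10141 genes that averaged 10 CPM or more. The log2 difference of Clock was 0.068 (SE 0.22, 95% interval -0.43 to 0.57, adjusted p 0.943, limma), so the interval covers folds of 0.742 to 1.48. Arntl (chromosome 7, 113207465 to 113314126), its binding partner, stood at 23.9, 11.6 and 27.3 CPM with vehicle and 24.0, 11.3 and 15.4 CPM with 15-HETrE. It was high in vehicle 1, vehicle combined and 15-HETrE 1 and lowest in vehicle 2 and 15-HETrE unnumbered, so each group held both high and low libraries. Arntl had 21.0 ± 8.24 CPM with vehicle and 16.9 ± 6.48 CPM with 15-HETrE (SD, n = 3 each), a log2 difference of -0.27 (SE 0.48, 95% interval -1.35 to 0.80, adjusted p 0.877, limma). Leaving out 1 library at a time moved it from -0.63 (without vehicle 2) to -0.033 (without 15-HETrE unnumbered). Its difference was 0.50 among the numbered libraries and -0.79 between the combined ones, which are opposite signs.

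The 3 Period genes encode repressors of the loop, and Per1 is also an early response gene. Per1 (chromosome 11, 69095217 to 69109960) was at 133, 174 and 187 CPM with vehicle and 99.3, 214 and 114 CPM with 15-HETrE. The 15-HETrE libraries held both the highest and the lowest values. Per1 had a log2 difference of -0.28 (SE 0.32, 95% interval -0.98 to 0.43, adjusted p 0.800, limma), with -0.61 among the numbered libraries and -0.71 between the combined ones. It was -0.061 without 15-HETrE 1 and -0.61 without 15-HETrE unnumbered. Per2 (chromosome 1, 91415982 to 91459324), whose protein carries CRY into the nucleus, stood at 37.7, 40.7 and 27.3 CPM with vehicle and 35.9, 55.4 and 25.1 CPM with 15-HETrE. Both combined libraries were its lowest. Per3 (chromosome 4, 151003652 to 151044665), the Period gene with both D-boxes printed above, was at 72.3, 48.1 and 35.4 CPM with vehicle and 66.7, 53.5 and 36.8 CPM with 15-HETrE. Here too the combined libraries were lowest in each group. Per2 and Per3 had log2 differences of 0.083 and 0.030, with 95% intervals of -0.74 to 0.91 and -0.76 to 0.82 (adjusted p 0.954 and 0.982, limma). Per3 lies inside the span of Camta1 on the same strand but shares 0 exonic bases with it.

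The cryptochromes, which bind PER and block CLOCK and ARNTL, included the member with the smallest p. Cry2 (chromosome 2, 92403646 to 92434043) stood at 63.0, 49.7 and 39.4 CPM with vehicle and 68.4, 76.9 and 88.4 CPM with 15-HETrE. All 3 15-HETrE libraries lay above all 3 vehicle libraries, though 15-HETrE 1 and vehicle 1 were close. Means were 50.7 ± 11.8 and 77.9 ± 10.02 CPM (SD, n = 3 each), and the log2 difference was 0.63 (SE 0.28, 95% interval -0.0027 to 1.26, unadjusted p 0.0508, adjusted p 0.528, limma). It was 0.28 among the numbered libraries and 1.15 between the combined ones. A transcript of the opposite strand, D930015M05Rik, shares 4.67% of the exonic bases of Cry2 and was at 1.22 to 5.80 CPM; whether the counting used strand is not stated. Cry1 (chromosome 10, 85131700 to 85185064) stood at 25.8, 25.3 and 3.60 CPM with vehicle and 22.9, 22.7 and 17.3 CPM with 15-HETrE. Of the 6 libraries, 5 lay within 17.3 to 25.8 CPM, and vehicle combined, with 20 reads, stood far below (exact Poisson 95% interval 2.20 to 5.55 CPM, for counting error only). Its log2 difference was 0.56 (SE 0.66, adjusted p 0.807, limma) and -0.28 without vehicle combined, so that library set the sign.

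The REV-ERB genes encode the repressors of the Arntl ROR elements printed above. Nr1d1 (chromosome 11, 98767932 to 98775333) was at 83.4, 68.2 and 77.3 CPM with vehicle and 128, 71.2 and 137 CPM with 15-HETrE. The 15-HETrE 1 and combined libraries lay above all vehicle libraries, and 15-HETrE unnumbered lay among them. Means were 76.3 ± 7.63 and 112 ± 35.8 CPM (SD, n = 3 each), and the log2 difference was 0.50 (SE 0.30, 95% interval -0.17 to 1.16, adjusted p 0.627, limma), with 0.75 among the numbered libraries and 0.82 between the combined ones. It was 0.32 without 15-HETrE combined and 0.79 without 15-HETrE unnumbered. With library weights limma called Nr1d1 at 0.71 (adjusted p 0.0308), the only member called there, but 16.7% of all genes were called with it; over the alternatives its adjusted p ran from 0.0308 to 0.912. Thra, which encodes a thyroid hormone receptor on the opposite strand, shares 8.55% of the exonic bases of Nr1d1. Thra stood at 155, 127 and 174 CPM with vehicle and 176, 175 and 248 CPM with 15-HETrE. Unlike Nr1d1, it had groups without overlap, though narrowly (log2 difference 0.39, adjusted p 0.650, limma). Reads from the shared end cannot be assigned where strand was not used. Nr1d2 (chromosome 14, 18204054 to 18239127) was at 142, 112 and 67.1 CPM with vehicle and 150, 142 and 104 CPM with 15-HETrE. Within each group its combined library was lowest, and the log2 difference was 0.35 (SE 0.31, 95% interval -0.35 to 1.05, adjusted p 0.743, limma). Without vehicle combined the difference of Nr1d2 was 0.049, and without vehicle 1 it was 0.58.

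Dbp (chromosome 7, 45705088 to 45710203), a PAR bZIP activator and a direct output of the loop, stood at 21.2, 11.7 and 8.63 CPM with vehicle and 26.7, 13.1 and 18.7 CPM with 15-HETrE. The groups overlapped, with vehicle 1 above 2 of the 3 15-HETrE libraries. Its log2 difference was 0.50 (SE 0.50, 95% interval -0.60 to 1.60, adjusted p 0.765, limma), 0.72 among the numbered libraries and 1.03 between the combined ones. It was 0.23 without vehicle combined, 0.25 without 15-HETrE 1 and 0.83 without vehicle 1. Sphk2, on the opposite strand, shares 539 of the 2993 exonic bases of Dbp and was at 11.7 to 36.9 CPM. Beside the higher means of Cry2, Nr1d1 and Dbp in 15-HETrE libraries stood the pan-neuronal markers, of which 9 of 10 had a difference above 0, with a median of 0.93 and 0 called; their part in these differences was not tested.

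**Figure D2:**
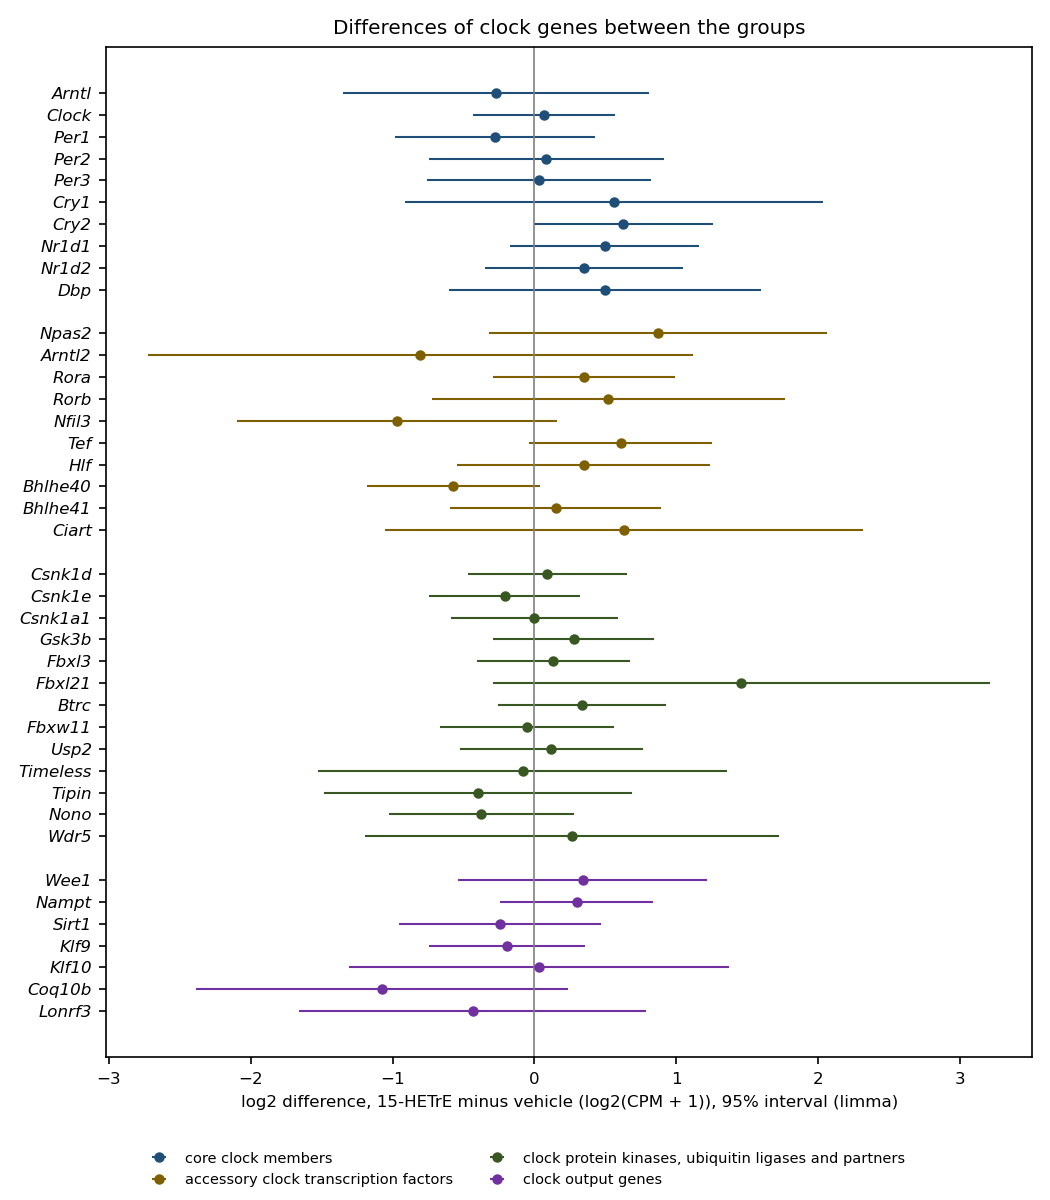
Log2 difference, 15-HETrE minus vehicle on log2(CPM + 1) (horizontal axis), with its 95% interval from limma for the clock genes tested, coloured by list. Every interval includes 0; that of Cry2 starts at -0.0027.

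Ratios of genes that oppose each other in the loop were taken within each library, which leaves the scaling between libraries nearly out of them. They are descriptions without a test, since the genes are members. The log2 ratio of Dbp to Arntl was -0.16, 0.010 and -1.56 in vehicle and 0.14, 0.20 and 0.26 in 15-HETrE libraries. The groups did not overlap in this ratio, but vehicle 2 and 15-HETrE 1 were close and vehicle combined alone was far down. Group means differed by 0.77, and by 0.28 without vehicle combined. The log2 ratio of Nr1d1 to Arntl was 1.76, 2.45 and 1.47 in vehicle and 2.36, 2.55 and 3.08 in 15-HETrE libraries, with overlapping groups that differed by 0.77, by 0.25 among the numbered libraries and by 1.61 between the combined ones.

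Other pairs did not separate the groups in the same way. For Per2 to Arntl the means differed by 0.36, and by -0.038 without vehicle combined; for Per3 to Arntl they differed by 0.30 and by -0.16. Set against Npas2, which takes the place of Clock as a partner of ARNTL in forebrain, the direction turned, with a difference of -0.37: Dbp to Npas2 was -0.29, -0.30 and -2.11 in vehicle and -0.82, -0.73 and -2.26 in 15-HETrE libraries. Here the combined libraries lay lowest in both groups, and the groups overlapped. Whether the hour of collection differed between libraries was not tested, as the labels give none.

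**Figure D3:**
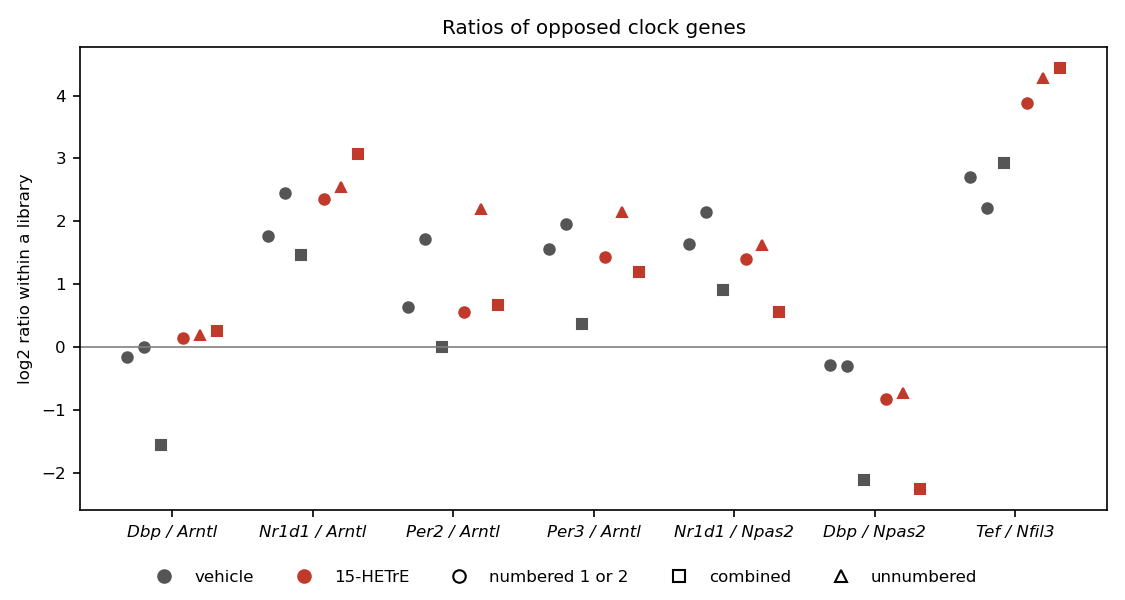
Log2 ratios (vertical axis) of opposed clock genes within each library; grey is vehicle, red 15-HETrE, and symbols give the kind of library name. For Dbp to Arntl, vehicle combined lies at -1.56, below the other 5 libraries at -0.16 to 0.26.

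Beyond the members, 32 other clock genes were counted in 3 lists; 30 passed the minimum, and limma called 0 of them in either direction, with 0 at an unadjusted p of 0.05. edgeR and DESeq2 also called 0. Their median log2 difference was 0.11, against 0.016 over all genes, and 3 of the 30, or 10%, had groups without overlap, against 15.2% of all genes.

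Of 11 accessory transcription factors, 10 were tested, with 7 differences above 0 and 3 below, and a median of 0.35. Tef, a D-box activator related to Dbp, stood at 174, 124 and 90.3 CPM with vehicle and 174, 234 and 170 CPM with 15-HETrE (log2 difference 0.61, adjusted p 0.554, limma). Nfil3, which represses through the same D-boxes, stood at 25.8, 25.8 and 11.0 CPM with vehicle and 10.9, 11.2 and 6.89 CPM with 15-HETrE (log2 difference -0.97, adjusted p 0.590, limma). Both genes overlapped between groups, as vehicle 1 lay among the 15-HETrE libraries for Tef and vehicle combined just under 15-HETrE unnumbered for Nfil3. Within libraries, the log2 ratio of Tef to Nfil3 was 2.71, 2.22 and 2.93 in vehicle and 3.87, 4.27 and 4.44 in 15-HETrE libraries, groups that did not overlap and whose means differed by 1.58, by 1.41 among the numbered libraries and by 1.51 between the combined ones. This pair was set together after its values were seen, so no test is given. Per3, with 2 D-boxes in its window, had a mean of 51.9 CPM with vehicle and 52.3 CPM with 15-HETrE. Per1, with a variant D-box, had means of 165 CPM with vehicle and 143 CPM with 15-HETrE. Any part of Tef or Nfil3 in these levels was not tested.

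Bhlhe40, a repressor that competes for E-boxes, was at 155, 155 and 95.5 CPM with vehicle and 102, 87.1 and 78.0 CPM with 15-HETrE (log2 difference -0.57, adjusted p 0.558, limma). Nfil3 and Bhlhe40 were both highest in vehicle 1 and vehicle 2, the libraries with fibroblast marker sums of 12684 and 10320 CPM. Of those 8 markers, all but Pdgfra were also highest in these libraries. All 8 had a difference below 0, and their part here was not tested. Npas2 stood at 26.1, 14.7 and 40.6 CPM with vehicle and 47.8, 22.4 and 93.1 CPM with 15-HETrE (log2 difference 0.87, adjusted p 0.633, limma). Its highest library, 15-HETrE combined, also had the highest astrocyte marker sum, 20749 CPM, and its lowest, vehicle 2, the lowest, 665 CPM. Most of these sums was Slc1a2, at 17252 and 369 CPM, though each astrocyte marker was highest in 15-HETrE combined. Of the 8 astrocyte markers 7 had a difference above 0, and their part in the values of Npas2 was not tested.

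**Figure D4:**
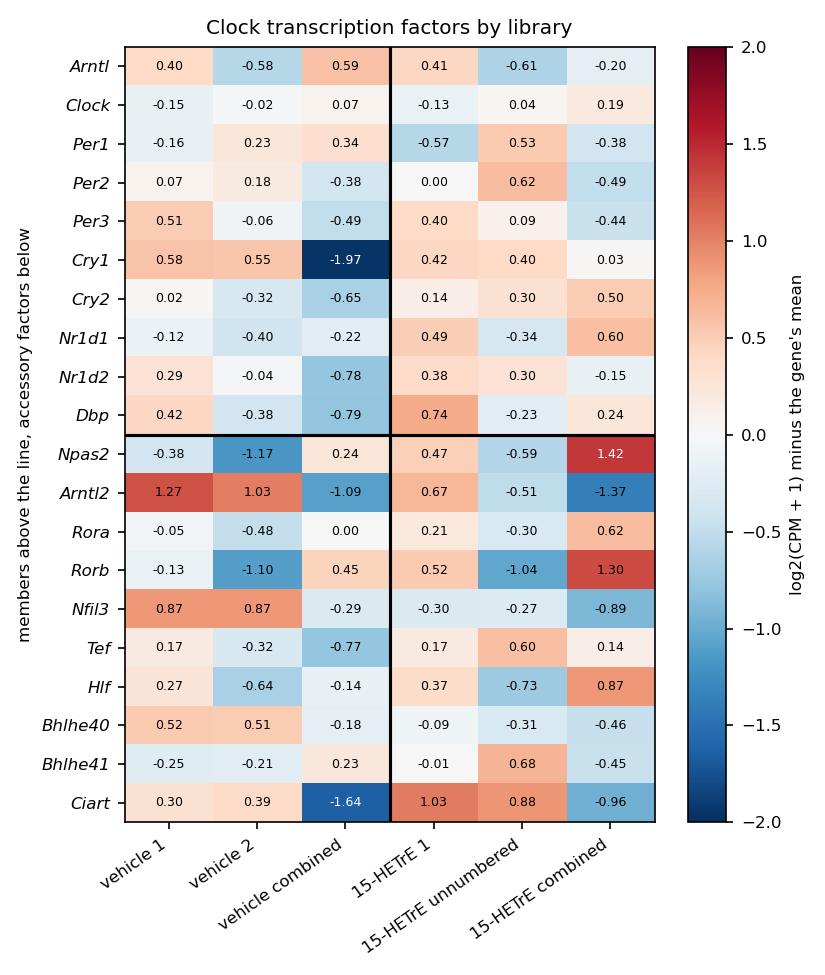
Log2(CPM + 1) of each gene minus its mean over the 6 libraries (colour and printed value), for the 10 members above the line and 10 accessory factors below it; columns are libraries, vehicle on the left. Cry1 has its one far low value, -1.97, in vehicle combined, and Npas2 and Rorb are highest in 15-HETrE combined.

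Of the kinases, ubiquitin ligases and partners that set the stability of clock proteins, 8 of 13 had a difference above 0, and the median was 0.091. Casein kinase 1 marks PER for destruction. Its epsilon gene Csnk1e stood at 86.6, 88.7 and 87.6 CPM with vehicle and 76.3, 67.2 and 84.2 CPM with 15-HETrE, the 1 gene of this list without overlap, singled out after its values were seen (log2 difference -0.21, adjusted p 0.800, limma). Fbxl21, a ligase subunit for cryptochromes, had the smallest p of the list, at 3.74, 1.98 and 0.18 CPM with vehicle and 3.82, 3.64 and 14.5 CPM with 15-HETrE (log2 difference 1.46, adjusted p 0.600, limma). A single library, 15-HETrE combined, was high, and the 0.18 CPM of vehicle combined was 1 read. Gsk3b, Btrc and Nono, the others of smallest p, differed by 0.28, 0.33 and -0.37.

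Among 8 output genes, 7 were tested, with 3 above 0, 4 below and a median of -0.19. Nampt, the rate-limiting enzyme of NAD salvage, was at 75.9, 74.6 and 71.2 CPM with vehicle and 102, 79.7 and 93.0 CPM with 15-HETrE, without overlap (log2 difference 0.30, adjusted p 0.719, limma). Coq10b, a coenzyme Q binding protein, was at 35.7, 45.2 and 33.8 CPM with vehicle and 30.9, 29.9 and 5.41 CPM with 15-HETrE, also without overlap (log2 difference -1.08, adjusted p 0.605, limma). Wee1, a mitotic kinase under E-box control, and Lonrf3 differed by 0.34 and -0.44.

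Per1 is also induced outside the daily cycle, by glucocorticoids and by cAMP signalling through response elements such as the one printed above, so genes with the same inducers were counted. Of 8 glucocorticoid-responsive genes, Per1 and Klf9 included, limma called 0; 6 differences lay below 0, with a median of -0.24. Fkbp5, a co-chaperone of the glucocorticoid receptor, stood at 52.7, 70.9 and 24.8 CPM with vehicle and 15.3, 22.3 and 6.89 CPM with 15-HETrE, without overlap (log2 difference -1.69, SE 0.52, adjusted p 0.422, limma). Sgk1, a kinase gene of the same hormone response, stood at 832, 1352 and 368 CPM with vehicle and 276, 631 and 167 CPM with 15-HETrE (log2 difference -1.28, adjusted p 0.507, limma). Zbtb16 differed by -0.47. Per1 was highest in 15-HETrE unnumbered, where Fkbp5 stood below all vehicle libraries. Within the 15-HETrE group, that library was the highest for Per1, Fkbp5 and Sgk1 alike. Vehicle 2 lay above vehicle 1 for each of these genes. Vehicle combined was the highest vehicle library for Per1 but the lowest for Fkbp5 and Sgk1. Whether these genes share an input here was not tested.

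Of 10 immediate early genes limma called 0, 8 differed below 0 and the median was -0.33. Their summed level was 2899 to 4224 CPM with vehicle and 2723 to 3149 CPM with 15-HETrE. Arc, a synaptic activity gene, stood at 94.0, 89.4 and 206 CPM with vehicle and 172, 251 and 210 CPM with 15-HETrE (log2 difference 0.79, adjusted p 0.513, limma). Crem, a cAMP-responsive regulator, and Junb differed by -1.15 and -0.61. Crem stood at 18.0, 17.8 and 57.9 CPM with vehicle and 15.0, 5.43 and 17.7 CPM with 15-HETrE. Its difference was -0.24 among the numbered libraries and -1.65 between the combined ones. Immediate early transcripts can also be induced during enzymatic dissociation, and its part in their levels was not tested.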

How the data were processed

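The submitters' processing notes name the trimmer Trimmomatic, the aligner HISAT2, the counter featureCounts, edgeR and the build mm10. No source used here gives their versions, strand setting or annotation. The authors deposited 1 table of a signal scaled as CPM with a factor per library. Whole reads were recovered by dividing each column by its smallest value above 0; 100% of values were whole within 1e-04 reads. Columns were assigned by name, and 3 carry no sample number; 0 other columns were present.

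Genes averaging 1 CPM or more (14523) were fitted with limma 3.58.1 (R 4.3.3) on log2(CPM + 1) with treatment as the only term and a variance trend; a fold change on this scale understates that of low genes. Adjusted p-values are Benjamini-Hochberg values over all genes, threshold 0.05. edgeR 4.0.16 and DESeq2 1.42.0 were run on the recovered reads. The design assumed plain CPM; the scaled values were tested in the same way. Scripts were tested on simulated data. Positions and exon lengths are from GENCODE M21 (GRCm38).

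The members, gene lists and tests were chosen with earlier results of these data known. All members are named, with up to 4 genes of each clock list and 3 of each inducer list by smallest p, genes that overlap a member, and the 3 closest patterns to Dbp, Per2 and Arntl; some genes that this rule takes are left out here. Alternatives were other pseudocounts, filters and scalings, other tools, library weights and a prefix term, and leaving out libraries. Reads carry no molecular identifiers, so the exact Poisson interval given for Cry1 in vehicle combined covers counting error only. The limma intervals rest on the spread between libraries.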

Additional observations from a re-analysis of the deposited data

How the results depend on the processing

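Of 19 alternatives, library weights alone changed the count of members or other clock genes called. limma then called 1 member, Nr1d1, and 4 other clock genes (Npas2, Rorb, Nfil3 and Bhlhe40), with 16.7% of all genes called. The cause was not tested. Calls over all genes also moved elsewhere, from 0% in the main fit to 1.14% in DESeq2 and 1.4% in limma without both combined libraries. At an unadjusted p of 0.05, 0 members passed in the main fit. Cry2 alone passed at pseudocounts of 0.5 and 0.1, without a filter, at a filter of 5 CPM, with median-of-ratios rescaling and without vehicle 1. Its unadjusted p in these fits was 0.0338 to 0.0499 (limma), against 0.0508 in the main fit. Without 15-HETrE unnumbered 1 member other than Cry2 passed, and 2 members passed with library weights and with the prefix term. The members' median was 0.22, and 0.0011 to 0.43 when a library was left out. In every alternative it stayed within 1 SD of the library means (0.23) of its value. That margin is wider than the median itself, so a fall to 0 would also lie within it. The log2 differences of Per1, Cry2, Nr1d1, Nr1d2 and Dbp kept their sign in every alternative run, but not their size: leaving out each library in turn gave -0.61 to -0.061, 0.46 to 0.79, 0.32 to 0.79, 0.049 to 0.58 and 0.23 to 0.83. With library weights, Arntl was at 0.44, Clock at -0.016, Per2 at -0.10 and Cry1 at -0.096. Per2 was at -0.12 with a prefix term, and Cry1 at -0.16 without both combined libraries. The same gave -0.63 to -0.033 for Arntl, -0.012 to 0.15 for Clock, -0.20 to 0.35 for Per2, -0.21 to 0.29 for Per3 and -0.28 to 0.99 for Cry1. Below 0 were Per2, Per3 and Cry1 without vehicle combined (-0.085, -0.21 and -0.28), Per2 and Per3 without 15-HETrE unnumbered (-0.20 and -0.0060), Per3 without 15-HETrE 1 (-0.16) and Clock without 15-HETrE combined (-0.012). No scaling moved the median of all genes by over 0.1. No paired analysis was possible because the groups share only the replicate number 1 in the column names. Both also hold a combined library, and a term for the column name prefix left 0 members called. As 15-HETrE unnumbered is the only library of its prefix, that term fits it alone, and it adds nothing to the difference so adjusted. At 20 reads, Cry1 in vehicle combined is the value that depth limits most.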

Other observations

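The genes with the closest patterns over the 6 libraries were found among 9876 genes that averaged 10 CPM or more, leaving out the members and symbols of predicted genes, Riken clones and pseudogenes, by the root mean square difference of log2 values centred on each gene's mean. They are a description of these libraries. For Dbp they were Ss18l1 (0.091), a subunit of a neuronal chromatin remodelling complex, and Kcnip4 (0.11), a potassium channel interacting protein. Kcnip4 stood at 39.5, 19.8 and 17.3 CPM with vehicle and 55.5, 27.1 and 33.5 CPM with 15-HETrE. For Per2 they were Usp48 (0.032), a deubiquitinase, Lamtor5 (0.074), of the lysosomal Ragulator complex, and Top3b (0.082), a topoisomerase. Usp48 stood at 119, 127 and 91.2 CPM with vehicle and 113, 173 and 78.5 CPM with 15-HETrE. For Arntl the closest were Wdr6 (0.14), Prr36 (0.17) and Pced1a (0.17). None of these genes belongs to the clock lists counted here.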
